A study of Homo sapiens with 2 samples.

Results

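The 10 genes described here are targets of the transcription factor ATF4 that act in amino acid metabolism and in the response to a shortage of amino acids. They were taken by name from the count table, where all 10 were found among 44591 genes. ASNS makes asparagine. PHGDH, PSAT1 and PSPH make serine, and SHMT2 and MTHFD2 carry its carbon into the mitochondrial folate pool. CHAC1 breaks down glutathione, and TRIB3, SESN2 and DDIT4 restrain signaling by growth factors and nutrients. They were measured by RNA sequencing of HSC-1, a cell line from a cutaneous squamous cell carcinoma, grown in DMEM with serum. One culture received control siRNA (siNC) and the other received siRNA against the long noncoding RNA LINP1 (siLINP1). Per the sample labels both were transfected at 70% confluency and kept without serum for 6 h, then with serum for 24 h. The paper's methods give a higher confluency and a longer time, and do not name the siLINP1 oligonucleotide that was sequenced. Each condition had 1 library, so no difference below has a replicate check and no p-value was computed.

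ATF4 is a bZIP factor whose protein is made more efficiently when the kinases PERK, GCN2, PKR or HRI phosphorylate the translation factor eIF2α. With partners of the C/EBP family it binds a composite DNA element, the C/EBP-ATF response element, near genes for the synthesis, uptake and loading onto tRNA of amino acids. The study asks whether LINP1 acts on the eIF2α branch of the unfolded protein response, and these genes lie downstream of that branch. Several also answer to other factors: SESN2 is a target of p53, DDIT4 of p53 and of hypoxia, and TRIB3 of CHOP.

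Reads assigned to genes numbered 18829544 for siNC and 15383081 for siLINP1. LINP1 itself had 167 reads in siNC and 23 in siLINP1 (log2 fold change -2.65, 95% interval -3.35 to -2.02). Of 9 epithelial and squamous markers, KRT5, KRT6A, TP63, CDH1, DSG3 and EPCAM had at most 45 reads in either library. KRT14 had 243 reads in siNC and 87 in siLINP1, DSP had 699 and 512 and ITGB4 had 5990 and 3962. The mesenchymal genes VIM (61097 and 41992 reads), CDH2 (1862 and 1092), ZEB1 (697 and 883) and FN1 (1151 and 753) were well read. The squamous markers KRT5, KRT6A, TP63 and DSG3 and the epithelial CDH1 were therefore near 0 in both libraries, while DSP and ITGB4 were not. After scaling with size factors from the median of ratios, siLINP1 was set over siNC, and the log2 of that ratio is the log2 fold change. The 95% intervals (Clopper-Pearson, on how a gene's reads divide between the libraries) cover counting error only and say nothing of the spread between cultures. A difference in RNA per cell and a difference in the share of cells that express a gene cannot be told apart in bulk RNA.

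The letters of the element were read from the GRCh37 genome, the build of the count table, within 1000 bases on each side of the 5′ end that the table gives each gene. They are shown because they mark which of the genes carry the element near their start. For each gene 1 copy is printed. Each sequence is written 5′ to 3′ on the strand that holds the element, with the element in capitals and 11 bases on each side.

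TRIB3: cccggtccgggTGATGCAAaccggagctaa
SESN2: cggctgccagtTGATGCAAcccgggtcccg
CHAC1: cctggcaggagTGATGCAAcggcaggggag
PSAT1: gctgtgcacgcTGATGCAAagcgcctaggg
PHGDH: tttcaaattagTGATGCAAtgagaattatg
DDIT4: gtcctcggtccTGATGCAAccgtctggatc
ASNS: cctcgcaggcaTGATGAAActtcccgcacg
MTHFD2: gctgctgcagcTGATGAAAtcgcggagccg

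The first 6 hold TGATGCAA, and ASNS and MTHFD2 hold TGATGAAA, which fits the looser letters TGATGNAA. In TRIB3 the stretch shown occurs 3 times with identical letters, spaced 33 bases apart, on the minus strand at chr20:361536-361543, chr20:361569-361576 and chr20:361602-361609. The GENCODE annotation places these copies in an untranslated exon of TRIB3. The RefSeq starts of TRIB3 lie further along the gene, at chr20:361939, chr20:361950 and chr20:361987. All 3 copies are therefore upstream of the RefSeq starts. Of 14275 protein-coding genes scanned in the same way, TRIB3 was the only 1 with at least 3 copies of TGATGCAA. SESN2 holds its copy at chr1:28586581-28586588 and PSAT1 at chr9:80912308-80912315, each on the minus strand in an intron of the gene. The copy of CHAC1 lies on the minus strand at chr15:41245460-41245467, in its 5′ untranslated exon by GENCODE. It is upstream of the RefSeq start of CHAC1 at chr15:41245669. The copy of PHGDH at chr1:120253603-120253610 is on the minus strand, in an intron of longer PHGDH transcripts. It lies at position -816 from the gene's start in the count table, and on the plus strand it is part of ATTGCATCA. The copy of DDIT4 lies on the plus strand at chr10:74032736-74032743, at position -941, in an exon of an unnamed noncoding gene. ASNS holds its printed copy on the minus strand at chr7:97501781-97501788, at position 66 in an untranslated exon by GENCODE. This copy is upstream of the RefSeq starts of ASNS, at chr7:97501720 and chr7:97501477 on the minus strand. MTHFD2 holds its copy on the plus strand at chr2:74426340-74426347 in an intron. ASNS, PSAT1 and SESN2 each hold 1 further copy of the looser letters that is not printed, at positions -752, -981 and -230. With TRIB3 they make 4 of the 8 genes with at least 2 copies of TGATGNAA, against 2.21% of the coding genes.

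At least 1 TGATGCAA on either strand was found in 6 of the 8 genes tallied, against 3.37% of the 14275 coding genes. The tally left out PSPH and SHMT2 because they lack a RefSeq promoter entry, which this window does not need. Whether these genes hold the element is not reported. TGATGNAA, which includes TGATGCAA, was found in 8 of 8 against 17.3%. The genes were put together as known ATF4 targets, so the share that holds the element is not independent of how they were chosen. In the shorter promoters of RefSeq (build GRCh38.p14, windows of 300 bases that end soon after each start), 8 of the 10 genes matched, with 11 promoters. PSPH and SHMT2 had no entry. TGATGNAA was present there in ASNS and CHAC1, against 3.62% of all 35116 promoters, and TGATGCAA in CHAC1 alone, against 0.866%. The letters ATTGCATCA were present in none of the promoters of these genes, against 0.236% of all promoters. A match of letters does not show that a factor bound there. The genes that hold TGATGCAA include the 2 with the highest and the 1 with the lowest log2 fold change of the 10 genes, TRIB3, SESN2 and CHAC1.

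As a group the 10 genes did not move one way. In siLINP1-treated cells TRIB3, SESN2, ASNS and SHMT2 were higher, CHAC1, PSAT1, DDIT4 and MTHFD2 were lower, and PHGDH and PSPH differed by less than their counting interval. The interval lay above 0 for 4 of the 10 genes and below 0 for 4. These genes are read deeply, with 1228 to 12434 reads in both libraries together, and at such depth a small difference already clears the interval. Among all 7071 genes with at least 1000 reads, 31.7% had the interval above 0 and 40.7% below 0. Among all 19840 genes with at least 10 reads the shares were 23.0% and 25.6%. Under total-count scaling the split of the deeply read genes turned to 40.9% above 0 and 30.9% below 0, and under TMM scaling it was 34.1% and 37.7%. Of the 10 genes, 5 lay above 0 and 3 below 0 under total-count scaling. The counts were again 5 and 3 after removal of the trend with GC content and gene length, for which no background share was computed. A share of 4 in 10 on either side is near the background of deeply read genes. By more than 1.5-fold, TRIB3 alone was higher and none was lower. Over all genes with at least 1000 reads 5.47% were higher and 3.56% lower by that much, and with at least 10 reads 14.4% and 13.0%.
The median log2 fold change of the 10 genes was 0.047, beside -0.037 for all genes with at least 1000 reads. Their summed reads were 32003 in siNC and 29947 in siLINP1, which is 0.170% and 0.195% of all reads. Scaled, the sum differed by a log2 fold change of 0.11 (95% interval 0.091 to 0.14). The log2 fold changes of the single genes ran from -0.45 for CHAC1 to 0.79 for TRIB3, and those of PHGDH and PSPH were smaller than that of the sum.

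TRIB3, a pseudokinase that binds AKT and also restrains ATF4 and CHOP, showed the largest difference of the 10. It is placed on the plus strand of chr20:361273-378203. It had 2549 reads in siNC and 3820 in siLINP1, or 2371 and 4108 after scaling. The siLINP1 library was 1.73-fold higher (log2 fold change 0.79, 95% interval 0.72 to 0.87). A lower log2 fold change was found for 97.2% of the genes with at least 1000 reads. Per length, its level was 46.9 RPKM in siNC and 86.0 in siLINP1, which moved it from the sixth to the fourth of the 10 genes.

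SESN2, or sestrin 2, senses leucine and holds back the kinase complex mTORC1 through the GATOR complexes. It had 2291 reads in siNC and 2809 in siLINP1, or 2131 and 3020 after scaling. It was 1.42-fold higher in siLINP1 (log2 fold change 0.50, 95% interval 0.42 to 0.58). DDIT4, also called REDD1, holds back the same kinase complex through TSC1 and TSC2. It had 7024 reads in siNC and 5410 in siLINP1, or 6532 and 5817 after scaling. Its log2 fold change was -0.17 (95% interval -0.22 to -0.12), opposite in sign to that of SESN2, but 0.034 (95% interval -0.017 to 0.085) after removal of the GC and length trend. DDIT4 was the most abundant of the 10 in both libraries, at 213 and 201 RPKM. The table places DDIT4 on the plus strand of chr10:74033677-74035794. An antisense gene, ENSG00000269926.1, lies inside it on the minus strand, with 1586 and 1235 reads and a log2 fold change of -0.15 (95% interval -0.26 to -0.043). The strand setting of the counting is not given in the sources used here, so reads of this pair cannot be told apart.

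ASNS, or asparagine synthetase, transfers nitrogen from glutamine to aspartate. It had 1533 reads in siNC and 1721 in siLINP1, or 1426 and 1851 after scaling. It was 1.30-fold higher in siLINP1 (log2 fold change 0.38, 95% interval 0.28 to 0.48). Its level per length was 32.2 RPKM in siNC and 44.3 in siLINP1. The pseudogene ASNSP1 had 40 and 44 reads, and 3 further ASNS pseudogenes had 0 reads in both libraries.

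The 3 enzymes of serine synthesis, which act one after another, differed little between the libraries with median-of-ratios scaling. PHGDH, which oxidizes 3-phosphoglycerate in the first step, had 4315 reads in siNC and 3797 in siLINP1, or 4013 and 4083 after scaling. Its log2 fold change of 0.025 had a 95% interval of -0.038 to 0.088. PSAT1, the aminotransferase of the second step, had 3633 and 2741 reads, or 3379 and 2947 after scaling. It was lower in siLINP1 by a log2 fold change of -0.20 (95% interval -0.27 to -0.13). PSPH, the phosphatase that releases serine, had the fewest reads of the 10, with 644 in siNC and 584 in siLINP1, or 599 and 628 after scaling. Its log2 fold change of 0.068 had the widest interval of the 10, -0.096 to 0.23. After removal of the GC and length trend PHGDH was at 0.19 (95% interval 0.13 to 0.25) and PSAT1 at -0.24 (95% interval -0.31 to -0.17). The enzymes were expressed at unlike levels, with 114 RPKM for PHGDH, 85.5 RPKM for PSAT1 and 16.1 RPKM for PSPH in siNC. Their order was the same in siLINP1, with 122, 79.0 and 17.9 RPKM. The pseudogene PSPHP1 had 4 and 0 reads and PSAT1P1 had 1 and 0.

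The pair of mitochondrial folate enzymes differed in opposite directions. SHMT2 turns serine into glycine and passes on a one-carbon unit. It had 5688 reads in siNC and 5796 in siLINP1, or 5290 and 6232 after scaling, a log2 fold change of 0.24 (95% interval 0.18 to 0.29). MTHFD2 oxidizes the folate that carries this unit. It had 3462 and 2723 reads, or 3220 and 2928 after scaling, a log2 fold change of -0.14 (95% interval -0.21 to -0.064). The 3′ end of SHMT2 overlaps NDUFA4L2 on the other strand, which had 57 and 64 reads. The pseudogene MTHFD2P1 had 10 and 12 reads.

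CHAC1, a cyclotransferase that cleaves glutathione, was the lowest of the 10 by log2 fold change, though not after removal of the GC and length trend. It is placed on the plus strand of chr15:41245347-41248717. It had 864 reads in siNC and 546 in siLINP1, or 804 and 587 after scaling. It was 1.37-fold lower in siLINP1 (log2 fold change -0.45, 95% interval -0.61 to -0.30). A lower log2 fold change was found for 8.68% of the genes with at least 1000 reads. Its level per length was 24.8 RPKM in siNC and 19.2 in siLINP1.

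**Figure D1:**
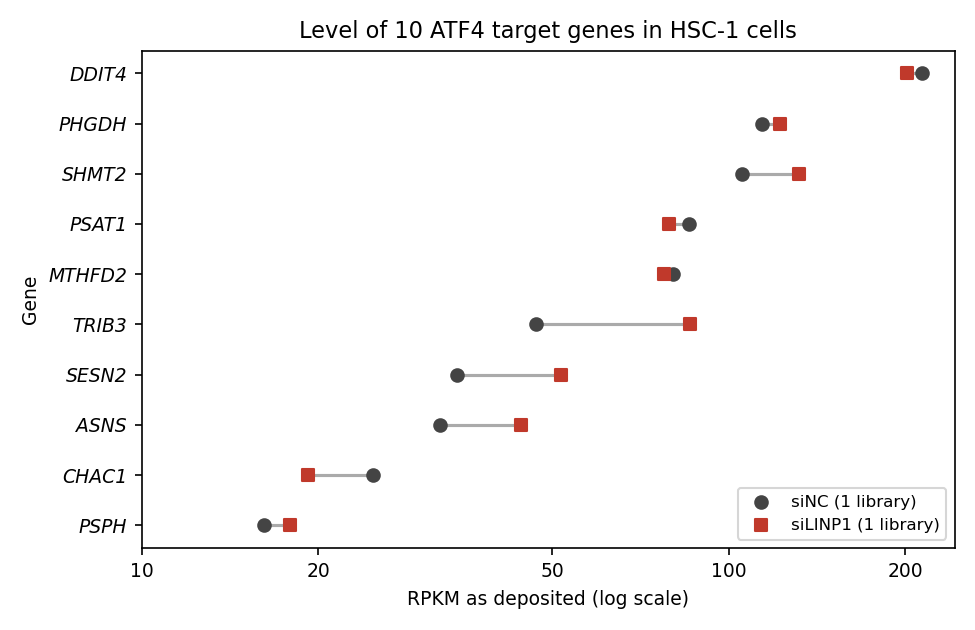
Level of each of the 10 genes in RPKM (x axis, log scale) in the siNC library (circles) and the siLINP1 library (squares), ordered by the level in siNC. The longest line joins the points of TRIB3 (46.9 and 86.0 RPKM), and DDIT4 is at the top in both libraries (213 and 201 RPKM). With 1 library per condition there are no error bars.

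The ratio of reads of 2 genes within a library does not depend on the scaling. In siNC there were 2.95 TRIB3 reads for each CHAC1 read, and in siLINP1 there were 7.0. Their log2 fold changes differed by 1.25 (95% interval from the 4 counts 1.08 to 1.42), the largest difference of the 45 pairs. After removal of the GC and length trend the widest pair was TRIB3 and PSAT1. The read ratio of SESN2 to DDIT4 was 0.326 in siNC and 0.519 in siLINP1, a difference of 0.67 (95% interval 0.58 to 0.77). SHMT2 had 1.64 and 2.13 reads for each read of MTHFD2, a difference of 0.37 (95% interval 0.28 to 0.46). Within serine synthesis, PHGDH had 1.19 and 1.39 reads for each PSAT1 read, a difference of 0.22 (95% interval 0.13 to 0.32). PHGDH and PSPH differed by 0.043, with an interval of -0.13 to 0.22. Of the 45 pairs, each taken with the higher gene first, 39 had an interval above 0. The 10 genes therefore did not change by 1 common factor beyond counting error between these libraries. No such count was made for pairs of other genes. Among all genes with at least 1000 reads 31.7% had the interval above 0 and 40.7% below 0. The count of pairs is therefore not a trait shown to be particular to these genes.

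Other scalings and a correction for base composition moved several of the small differences. Scaling by the total count gave 0.107 for PHGDH, whose interval then lay above 0, and -0.055 for MTHFD2, whose interval then held 0. It also gave -0.11 for PSAT1 and -0.085 for DDIT4. Removal of the trend of the log2 fold change with GC content and gene length left CHAC1 at -0.22 (95% interval -0.38 to -0.067) and DDIT4 at 0.034 (95% interval -0.017 to 0.085). It put PHGDH at 0.19, SESN2 at 0.66 and TRIB3 at 0.98. The transcripts of CHAC1, TRIB3, SESN2 and DDIT4 have a GC content of 61.3%, 61.5%, 59.6% and 58.1%. The direction held for TRIB3, SESN2, ASNS, SHMT2, CHAC1, PSAT1 and MTHFD2 under each scaling and under this correction.

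**Figure D2:**
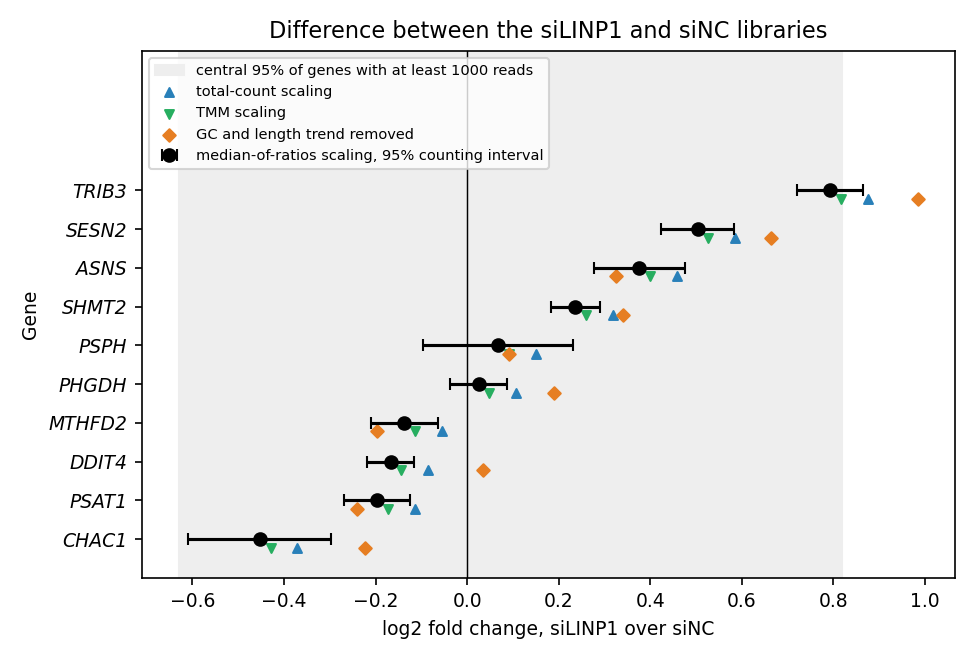
Log2 fold change of siLINP1 over siNC (x axis) for the 10 genes, with the 95% counting interval (black circles and bars) and the values under total-count scaling, TMM scaling and removal of the GC and length trend (colored symbols). The gray band is the central 95% of the genes with at least 1000 reads, -0.63 to 0.82, under median-of-ratios scaling. It was not recomputed for the settings of the colored symbols. By the black circles all 10 genes lie inside the band, with TRIB3 (0.79) near its upper edge. DDIT4 crosses 0 when the GC and length trend is removed.

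ATF4 mRNA had 10082 reads in siNC and 10088 in siLINP1 (log2 fold change 0.21, 95% interval 0.17 to 0.25). DDIT3, which encodes CHOP, had 1965 and 3558 reads (1.07, 95% interval 0.99 to 1.15). A list of 13 genes held the eIF2α kinases, eIF2α itself (EIF2S1), ATF4, its bZIP partners, NUPR1 and PPP1R15A. Of these 13 genes, 8 had the interval above 0 and 4 below 0, with a median of 0.36. Among the kinases, the interval lay above 0 for EIF2AK3 (0.48) and below 0 for EIF2AK1 (-0.10) and EIF2AK4 (-0.18). For EIF2AK2 (0.013) it held 0. The shares over all genes, here and for the lists that follow, are 23.0% above and 25.6% below 0 with at least 10 reads, and 31.7% and 40.7% with at least 1000 reads. ATF3, a bZIP repressor and activator, was at the top of this list with 1197 and 4929 reads (2.25). NUPR1, a small stress-induced chromatin protein, was at the bottom with 79 and 38 reads (-0.85).

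Of 16 other genes of one-carbon metabolism with at least 10 reads, 4 had the interval above 0 and 5 below 0, with a median of -0.072. Both counts are near the shares of 23.0% and 25.6% over all genes with at least 10 reads. ALDH1L2, the mitochondrial formyltetrahydrofolate dehydrogenase, was the highest, with 693 and 960 reads (0.68, 95% interval 0.54 to 0.82). GCSH, a carrier protein of the glycine cleavage system, was the lowest, with 613 and 354 reads (-0.58). SHMT1, the cytosolic counterpart of SHMT2, had 853 and 497 reads (-0.57, 95% interval -0.73 to -0.41), in the opposite direction to SHMT2. Of the paralogs of MTHFD2, MTHFD1L had 1220 and 1185 reads (0.17, 95% interval 0.051 to 0.28), in the opposite direction to MTHFD2. MTHFD1 had 1815 and 1467 reads (-0.098, 95% interval -0.20 to 0.0024). MTHFD2L had 70 and 66 reads (0.12, 95% interval -0.38 to 0.63). ALDH1L1 had 0 and 3 reads and was left out.

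Of 19 other genes of amino acid synthesis and transamination, 3 had the interval above 0 and 8 below 0, with a median of -0.098. The count below 0 is near the 40.7% of all genes with at least 1000 reads, of which 31.7% lay above 0. Over all genes with at least 10 reads 23.0% lay above 0 and 25.6% below 0. The list was not tested against these shares. CTH, which makes cysteine from cystathionine, was the highest with 246 and 416 reads (0.97, 95% interval 0.74 to 1.20). BCAT2, the mitochondrial branched-chain aminotransferase, was the lowest with 1558 and 1053 reads (-0.36).

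Of 10 genes of glutathione metabolism, none had the interval above 0 and 6 had it below 0, as CHAC1 did, with a median of -0.36. Over all genes 25.6% had it below 0 with at least 10 reads and 40.7% with at least 1000 reads, and the list was not tested against them. CHAC2, the paralog of CHAC1, had 231 and 146 reads. Its log2 fold change of -0.45 (95% interval -0.76 to -0.15) was close to that of CHAC1. GGCT, which acts on the products of glutathione breakdown, had 1007 and 637 reads (-0.45). GGT1, which cleaves glutathione outside the cell and has near-identical copies that can share reads, was the lowest with 119 and 54 reads (-0.93). CNDP2, a dipeptidase that completes the breakdown, was the highest with 1154 and 1007 reads (0.013).

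Among the paralogs of TRIB3 and SESN2, TRIB1 had 369 and 548 reads (0.78, 95% interval 0.59 to 0.97), near the log2 fold change of TRIB3. TRIB2 had 926 and 769 reads (-0.059), SESN1 had 380 and 342 (0.057) and SESN3 had 184 and 183 (0.20), each with an interval that held 0. DDIT4L, the paralog of DDIT4, had 0 reads in both libraries.

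Of 13 genes for tRNA synthetases and the tRNA exporter XPOT, which ATF4 is also known to control, 12 had the interval above 0 and 1 below 0, with a median of 0.21. GARS was the highest (5002 and 5735 reads, 0.41) and EPRS the lowest (6154 and 5046 reads, -0.077). Of 9 amino acid transporters with at least 10 reads, 5 had the interval above 0 and 3 below 0, with a median of 0.083. SLC3A2 was the highest (9865 and 12262 reads, 0.52) and SLC1A4 the lowest (1123 and 512 reads, -0.92). These counts stand beside the 31.7% and 40.7% of all deeply read genes, and were not tested against them.

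**Figure D3:**
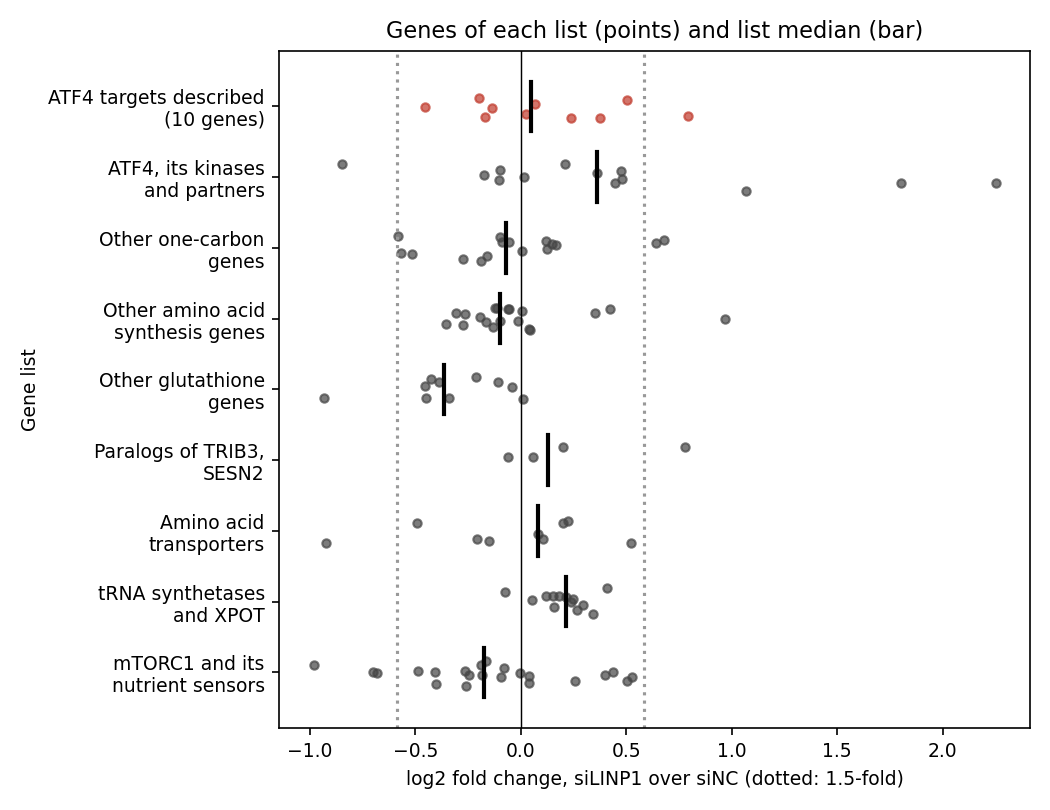
Log2 fold change of siLINP1 over siNC (x axis) of each gene (points) in the lists named on the y axis, with the list median (black bar). Dotted lines mark 1.5-fold, and genes with fewer than 10 reads over both libraries are not drawn. The 10 ATF4 targets spread on both sides of 0 around a median of 0.047, the tRNA synthetases lie close together around 0.21, and the glutathione genes lie mostly below 0.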

How the data were processed

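Total RNA was sequenced on an Illumina HiSeq instrument. The authors used Tophat2 with the human assembly GRCh37/hg19 and HTSeq, and the labels also name Bowtie2, HISAT and HISAT2. Versions, annotation, counting mode and strand are not given in the sources used here. The authors deposited raw read counts per gene, which were used for all fold changes. They also deposited RPKM values, the counts divided by gene length and by the total of counted reads, which were used to compare levels between genes. A further 12 columns of per-sample values were not used.

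Size factors (median of ratios) were 1.08 for siNC and 0.930 for siLINP1. Genes with fewer than 10 reads over both libraries were left out of counts and medians. No pseudocount was added. No test was possible with 1 library per condition. Intervals are at the 95% level and cover counting error only. PCR duplicates were not removed by molecular identifiers. Differences between a pair of genes have Wald intervals from the 4 counts.

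The genes and lists were chosen with earlier results of these data known. All 10 genes, their direct paralogs, ATF4, DDIT3 and LINP1 were named, with the highest and lowest gene of each list among those with at least 100 reads. GGCT, ALDH1L1 and the eIF2α kinases were chosen after their values were seen. Named pseudogenes and genes that overlap the 10 genes were added, and the cell type markers are given as a whole list. Element letters (both strands) were searched in RefSeq promoters and, added after the data were examined, around the count table's 5′ ends in GRCh37, with GENCODE v44lift37 annotation. Alternatives were total-count and edgeR TMM scaling, minimums of 1 and 100 reads and pseudocounts of 1 and 5. Added after the data were examined were a minimum of 1000 reads and removal of a lowess trend (fraction 0.3, 11974 genes) with GC content and gene length. The interval was tested on simulated data with 200 changed genes and counting error only. Those data hold no spread between cultures, so they cannot show how the interval fares with it. Scaling by TMM used edgeR 4.0.16 in R 4.3.3. Intervals came from scipy 1.17.1, the trend from statsmodels 0.14.6 and tables from pandas 2.3.3 and numpy 2.4.6, under Python 3.11.15. Figures were drawn with matplotlib 3.10.9.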

Additional observations from a re-analysis of the deposited data

How the results depend on the processing

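Depth limits PSPH and CHAC1 most among the 10 genes, with 1228 and 1410 reads over both libraries. No paired analysis was possible because each condition had 1 library, and for the same reason no library could be left out. The number of genes higher by more than 1.5-fold went from 1 to 2, with SESN2 added, under total-count scaling and after removal of the GC and length trend. Over all genes with at least 1000 reads the share higher by that much was 5.47% under the main scaling and 7.45% under total-count scaling. No share over all genes was computed after removal of the trend. The median log2 fold change of the 10 genes was 0.129 under total-count scaling and 0.140 after removal of the trend, against 0.047. The number of intervals above and below 0 was 5 and 3 under both settings, against 4 and 4. DDIT4 turned from -0.17 to 0.034 after removal of the trend, and the cause was not tested. Under TMM scaling, minimums of 1, 100 and 1000 reads and pseudocounts of 1 and 5, each of these values kept its direction and side of the threshold. The element TGATGNAA was found in 2 genes in RefSeq promoters and in 8 in the window around the count table's 5′ ends. Both counts are out of the same 8 genes, without PSPH and SHMT2. The window differs both in length and in the start it is set from. Placed on GRCh37, the RefSeq promoters of ASNS and CHAC1 hold the printed copies of these genes. The copies found in TRIB3, SESN2, PSAT1, PHGDH, DDIT4 and MTHFD2 all lie outside their RefSeq promoters. How much is owed to length and how much to the start was not tested.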

Other observations

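SESN2 and DDIT4 act on mTORC1, the kinase complex that couples growth to nutrients, and the genes of this complex and its sensors were read as well. Of 22 genes, 5 had the counting interval above 0 and 9 below 0, with a median log2 fold change of -0.18. Over all genes with at least 1000 reads 31.7% lay above and 40.7% below 0, and with at least 10 reads 23.0% and 25.6%, so the count below 0 is near that of deeply read genes. RRAGC, a GTPase that brings mTORC1 to the lysosome, was the highest (0.53, 95% interval 0.37 to 0.69), with 586 siNC reads and 731 siLINP1 reads. DEPDC5, a subunit of the GATOR1 complex, was the lowest with 281 and 123 reads (-0.98, 95% interval -1.30 to -0.67). RHEB, the GTPase that activates mTORC1, had 1645 and 876 reads (-0.70, 95% interval -0.82 to -0.58) and was chosen after its value was seen.

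Of 17 further ATF4 targets of mixed function, 7 had the interval above 0 and 4 below 0, with a median of 0.067, beside the same shares over all genes. KDM7A, a histone demethylase, was the highest with 306 and 512 reads (0.95). VLDLR, a lipoprotein receptor, was the lowest with 415 and 234 reads (-0.62). The 481 coding genes with TGATGCAA within 1000 bases of their start had a median log2 fold change of -0.014, with 233 higher and 248 lower. All 14275 coding genes scanned had a median of -0.037, with 6584 higher and 7688 lower.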
